A study of Mus musculus with 46 samples.

Results

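The nuclear genes that encode the mitochondrial respiratory chain and ATP synthase were followed in whole mouse lung during exposure to 100% oxygen, in wild type mice and in mice mutated in Nrf2, the transcription factor encoded by Nfe2l2. Members were chosen by symbol. They are genes with a probe set of 1 symbol that starts with Ndufa, Ndufb, Ndufc, Ndufs, Ndufv, Uqcr, Cox4 to Cox8 or Atp5, or that is Sdha, Sdhb, Sdhc or Sdhd. This gave 80 of the 15964 genes with a symbol of their own on the arrays, each read on its brightest probe set among 145 for these genes. Of them, 67 are subunits found in most tissues, with 32 in complex I, 4 in complex II, 7 in complex III, 10 in complex IV and 14 in complex V. A further 3 are heart or muscle isoforms of complex IV (Cox6a2, Cox7a1, Cox8b), 3 are testis isoforms (Cox6b2, Cox7b2, Cox8c) and 7 are Ndufaf assembly factors, which are not part of the finished enzyme.

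The respiratory chain sits in the inner mitochondrial membrane. Complexes I and II pass electrons from NADH and succinate to ubiquinone, complex III passes them on to cytochrome c, and complex IV reduces oxygen to water. The proton gradient that complexes I, III and IV build drives complex V, the ATP synthase. Leakage of electrons onto oxygen, above all at complexes I and III, makes superoxide, which is why the chain is often studied in lung injury by high oxygen.

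Both genotypes were sampled at 0 h, before oxygen, and after 24 h, 48 h and 72 h of 100% oxygen, which makes 8 groups. The labels name the mutant group by the gene alone and give no strain, age or sex, so the kind of allele is not given in the sources used here. Each group has samples labelled 1a and 1b, hybridised to 3 array designs, A, B and C, in 46 arrays. On design A, which carries 63 of the 80 members, the wild type 24 h group and the mutant 0 h group have 1 array each (1b), and the other groups have 2. The labels do not say that 1a and 1b are separate animals, so p-values measure the spread between these samples, which may be technical.

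The Nfe2l2 probe set read 2428 to 4488 on the 7 wild type arrays of design A and 303 to 448 on the 7 mutant arrays. The 5 mutant 0 h arrays stood apart from the other 41. The ratio of the 3′ to the 5′ Gapdh control probe sets was 1.67 to 2.26 on them and 0.858 to 1.54 elsewhere, and that of actin was 1.42 to 2.21 against 0.149 to 1.25. On design A the mutant 0 h array had a mean correlation of 0.916 with the others, against 0.952 to 0.964. The mutant at 72 h was therefore also compared with wild type 0 h. In bulk tissue, fewer cells of a type and less RNA per cell cannot be told apart.

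Promoters were read because the members share known regulators. Nuclear respiratory factor 1 (NRF1), ETS family factors and YY1 are the textbook activators of these genes, and Nrf2, a different protein despite the like name, binds the antioxidant response element. RefSeq windows on GRCm38.p6, from 250 bases before to 50 bases after a transcription start, were found for 66 of the 80 members, 56 of them subunits. Both strands were searched, and a match is only a run of letters. The NRF1 core, GCGCANGC, was in 30.4% of the 56 subunit genes and in 11.2% of all 27025 genes with a window. The ETS core, CCGGAA, was in 42.9% against 16.7%, and the YY1 core, AAGATGGC, in 16.1% against 3.19%. The antioxidant response element core, TGACNNNGC, was in 12.5% against 13.99%.

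The 6 windows printed here are the 120 bases before the start, 5′ to 3′ on the gene's strand, with any match to 1 of these 4 motifs in capitals. They were picked to set genes that fell in wild type lung beside Sdha, which was not called. None of the 6 holds the YY1 core in the bases shown. Uqcrh (chr4:116075071-116075190, minus strand) and Ndufv3 (chr17:31519995-31520114, plus strand) hold the ETS core. Atp5k (chr5:108434400-108434519, minus strand) holds a pair of overlapping NRF1 cores, on opposite strands. Ndufa7 (chr17:33824452-33824571, plus strand) holds the antioxidant response element core. Sdha (chr13:74350241-74350360, minus strand) holds the NRF1 core at 3 places. Cox7a1 (chr7:30184051-30184170, plus strand) holds none of the 4 in these bases.
Uqcrh: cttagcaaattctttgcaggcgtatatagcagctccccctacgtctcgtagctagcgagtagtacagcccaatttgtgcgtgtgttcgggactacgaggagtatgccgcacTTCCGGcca
Ndufv3: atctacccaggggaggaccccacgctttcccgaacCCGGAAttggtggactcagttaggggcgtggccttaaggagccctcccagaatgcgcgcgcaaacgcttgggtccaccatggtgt
Atp5k: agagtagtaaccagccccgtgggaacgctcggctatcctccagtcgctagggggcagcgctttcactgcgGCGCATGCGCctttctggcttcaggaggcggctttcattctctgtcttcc
Ndufa7: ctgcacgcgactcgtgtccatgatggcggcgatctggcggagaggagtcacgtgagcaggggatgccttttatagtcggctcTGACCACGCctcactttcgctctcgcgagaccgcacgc
Sdha: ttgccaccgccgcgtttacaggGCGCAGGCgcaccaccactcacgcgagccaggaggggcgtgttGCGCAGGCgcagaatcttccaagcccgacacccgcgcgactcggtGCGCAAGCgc
Cox7a1: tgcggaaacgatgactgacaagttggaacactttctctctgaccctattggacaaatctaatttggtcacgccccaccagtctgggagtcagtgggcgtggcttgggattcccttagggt

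In lung before oxygen, the brightest subunit probe sets were those of Ndufs8, a core iron-sulfur subunit of complex I, which read 27869 and 44195 on the 2 wild type 0 h arrays, and of Cox5a, a structural subunit of complex IV, at 27696 and 26861. The intensity of 1 probe set cannot be set against that of another as an amount of RNA, so each gene was compared with itself. The tests used limma on log2 of intensity plus a constant, which shrinks the differences of dim genes, and a gene was called at an adjusted p under 0.05 over all 26833 probe sets tested. Of the 80 members, 78 were bright enough to test. Cox8a (23.7 to 110 on its arrays) and the assembly factor Ndufaf2 (17.0 to 92.7) were not.

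Most subunits read lower in wild type lung at each oxygen time, and the calls came at 48 h and 72 h. At 24 h against 0 h, the difference was negative for 59 of 66 tested subunits, with a median of -0.36 on the log2 scale against -0.04 over all tested probe sets. None of the 66 was called by limma, and 24 had an unadjusted p under 0.05. Over all probe sets tested, 0.962% were called higher and 0.760% lower at this time. Among all 78 tested members only Cox7a1 was called at 24 h.

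At 48 h, 16 of 66 subunits were called lower and none higher, where 3.39% of all probe sets tested were called lower and 3.25% higher. The median difference of the subunits was -0.44, against -0.03 over all. For 45 of the 66, or 68.2%, both 48 h arrays lay below both 0 h arrays, which held for 27.6% of all probe sets tested. The calls covered 7 of 32 subunits of complex I, 0 of 4 of complex II, 3 of 7 of complex III, 5 of 9 of complex IV and 1 of 14 of complex V.

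At 72 h, 13 of 66 subunits were called lower and none higher, beside 3.57% lower and 4.26% higher over all. The median was -0.41 against -0.05, and 40 of the 66 (60.6%) had both 72 h arrays below both 0 h arrays, beside 28.1% of all probe sets. The counts rest on few arrays. Over all 78 members, 18 were called at 48 h and 15 at 72 h. Without wild type 48 h 1a, 48 h 1b, 0 h 1a or 0 h 1b, the 48 h count was 1, 4, 5 or 3. Without wild type 72 h 1a, 72 h 1b, 0 h 1a or 0 h 1b, the 72 h count was 6, 6, 4 or 3, and it was 3 (4 at 48 h) in a fit of the 4 arrays per design compared. The median difference of the members stayed below 0 in each of these.

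**Figure D1:**
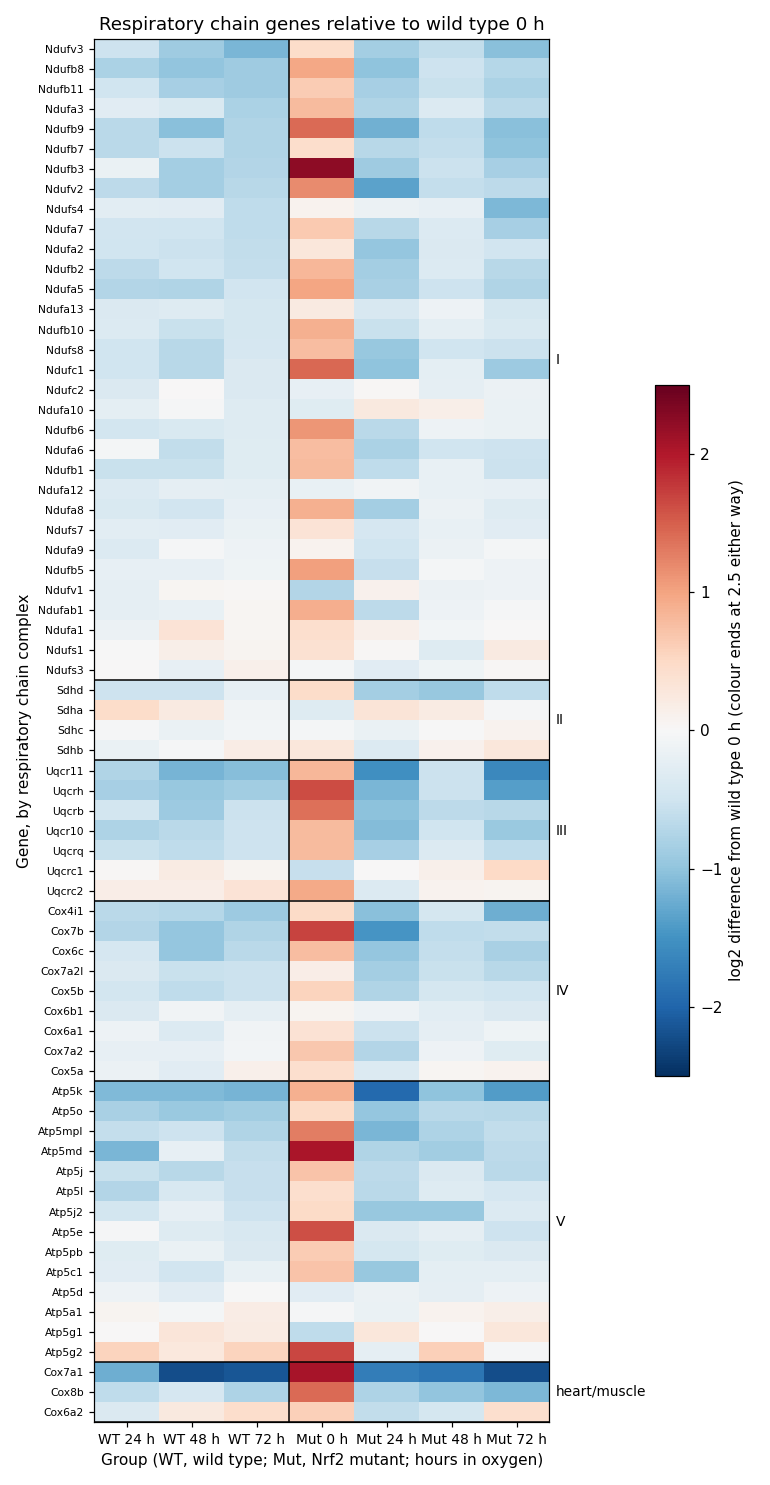
Log2 difference from wild type 0 h of each tested subunit (rows, grouped by complex, with the heart or muscle isoforms last) in the other 7 groups (columns), with blue for lower and red for higher and the colour scale ending at -2.5 and 2.5. Most rows are blue in the oxygen columns of both genotypes, 3 of the 4 complex II rows are pale, Sdhd being the exception, and the mutant 0 h column is red for most rows.

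Complex I takes electrons from NADH. It has core subunits that carry the redox centres and a large number of accessory subunits around them. At 72 h, 7 of its 32 subunits were called lower, with a median of -0.39. Ndufv3, an accessory subunit beside the NADH-binding site, read 1449 and 1276 at 0 h, 930 at 24 h, 727 and 676 at 48 h, and 533 and 619 at 72 h. Every oxygen array was below both 0 h arrays, and the 72 h arrays were the lowest. Its 72 h difference was -1.14 ± 0.17 (SE, adjusted p = 0.0035), or 2.20-fold lower.

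Ndufb11, an accessory subunit of the membrane arm, read 5372 and 4921 at 0 h, 3627 at 24 h, 2669 and 3043 at 48 h, and 2628 and 2891 at 72 h. The oxygen arrays again lay below those of 0 h, with those of 48 h and 72 h overlapping each other. It was 1.84-fold lower at 72 h (log2 difference -0.88 ± 0.16, adjusted p = 0.0075). Ndufb8, of the same arm, read 3504 and 3624 at 0 h, 2018 at 24 h, 1669 and 1850 at 48 h, and 1837 and 1923 at 72 h. It was 1.86-fold lower at 72 h (-0.90 ± 0.16, adjusted p = 0.0067), although a second, far dimmer probe set on design C gave 0.06 at 48 h where the main one gave -0.99. Also called lower at 72 h were Ndufa3 (-0.79), Ndufb9 (-0.76), Ndufb7 (-0.75) and Ndufa7 (-0.63).

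The 7 complex I calls at 72 h were all accessory subunits. That split was drawn after the values were seen, and its difference was not tested. Of 26 accessory subunits, 7 were called lower and the median was -0.44. Of 6 core subunits, none was called by limma, 1 had an unadjusted p under 0.05, and the median was -0.07. The split is not even over the array designs. The core subunits Ndufs1, Ndufs7 and Ndufs8 were read on design B or C, as few accessory ones were, and all 7 calls were on design A. Ndufs1, the largest core subunit, read 1712 and 2157 at 0 h and 2466 and 1668 at 72 h, so that its groups overlapped. Ndufv1, which binds NADH, read 6552 and 6029 at 0 h and 6720 and 6124 at 72 h, also overlapping (log2 difference 0.03). At 48 h the core subunit Ndufv2 was called lower (-0.85).

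Complex II, succinate dehydrogenase, also belongs to the citric acid cycle. None of its 4 subunits was called lower or higher by limma in wild type lung at any oxygen time, and the number with an unadjusted p under 0.05 was 2 at 24 h (Sdha at 0.46, Sdhd at -0.51), 1 at 48 h and 0 at 72 h. Sdhb, the iron-sulfur subunit, read 3696 and 4561 at 0 h, 3656 at 24 h, 3879 and 4149 at 48 h, and 4916 and 4400 at 72 h. Arrays with and without oxygen overlapped, and the 72 h difference was 0.18. A dimmer probe set of Sdhb on design B rose by 1.37 (adjusted p = 0.0065), so the 2 probe sets differ. Sdha, the flavoprotein with the succinate site, read 366 and 447 at 0 h and 338 and 423 at 72 h, a difference of -0.08. The membrane anchors Sdhc and Sdhd differed by -0.07 and -0.21.

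Complex III hands electrons to cytochrome c. At 48 h, 3 of its 7 subunits were called lower (Uqcrh, Uqcrb, Uqcrq), and at 72 h 1 was, Uqcrh, with a median for the complex of -0.52. Uqcrh, the hinge protein beside cytochrome c1, read 3154 and 4284 at 0 h, 2029 at 24 h, 1767 and 1997 at 48 h, and 1945 and 1985 at 72 h. All 5 oxygen arrays were below both 0 h arrays. It was 1.84-fold lower at 72 h (-0.88 ± 0.24, adjusted p = 0.048), but the call was lost without any 1 of the 4 arrays compared, and its second probe set, on design C, gave 0.02. Uqcr11 had a larger difference that was not called (-1.06 ± 0.36, adjusted p = 0.12). Neither core protein was called. Uqcrc1 read 4375 and 4538 at 0 h and 5210 and 4205 at 72 h, with overlap and a difference of 0.07, and Uqcrc2 differed by 0.34.

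Complex IV, cytochrome c oxidase, reduces oxygen. At 48 h, 5 of its 9 tested subunits without tissue isoforms were called lower (Cox7b, Cox6c, Cox4i1, Cox5b, Cox7a2l), and at 72 h 3 were (Cox4i1, Cox7b, Cox7a2l), with medians of -0.57 and -0.54. Cox4i1, a subunit that takes part in regulation by ATP, has 2 arrays in every group on design B. It read 3527 and 3663 at 0 h, 2312 and 2108 at 24 h, 2164 and 2102 at 48 h, and 1983 and 1723 at 72 h. The 6 oxygen arrays did not overlap with those of 0 h, and the 72 h arrays were the lowest. It was 1.88-fold lower at 72 h (-0.91 ± 0.18, adjusted p = 0.0084), and a second probe set on design A gave -0.84. Without wild type 0 h 1b or 72 h 1b the difference was -0.89 or -0.82 and was no longer called. Cox7a2l, known for a role in joining complexes III and IV, differed by -0.54, a call lost without any 1 of the 4 arrays. The brightest subunit, Cox5a, read 29196 and 30194 at 72 h, just above its 0 h arrays, with a difference of 0.12 that was not called.

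Complex V makes ATP. Of its 14 subunits, 1 was called lower at 48 h (Atp5j) and 2 at 72 h (Atp5k, Atp5j), with medians of -0.30 and -0.46. Atp5k, subunit e, which helps pair ATP synthases into dimers, read 527 and 529 at 0 h, 205 at 24 h, 111 and 343 at 48 h, and 199 and 190 at 72 h. Its oxygen arrays were all below those of 0 h, with a wide gap between the 2 arrays of 48 h. It was 2.22-fold lower at 72 h (-1.15 ± 0.31, adjusted p = 0.047), a fold that is uncertain because these arrays lie near 195, the intensity used on design A to tell dim probe sets apart. Atp5j, of the peripheral stalk, differed by -0.58 (adjusted p = 0.043). Both calls were lost without any 1 of the 4 arrays compared. Atp5a1, the alpha subunit of the catalytic head, read 7309 and 8185 at 0 h and 7630 and 10085 at 72 h, overlapping, with a difference of 0.18 ± 0.20 (adjusted p = 0.67).

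**Figure D2:**
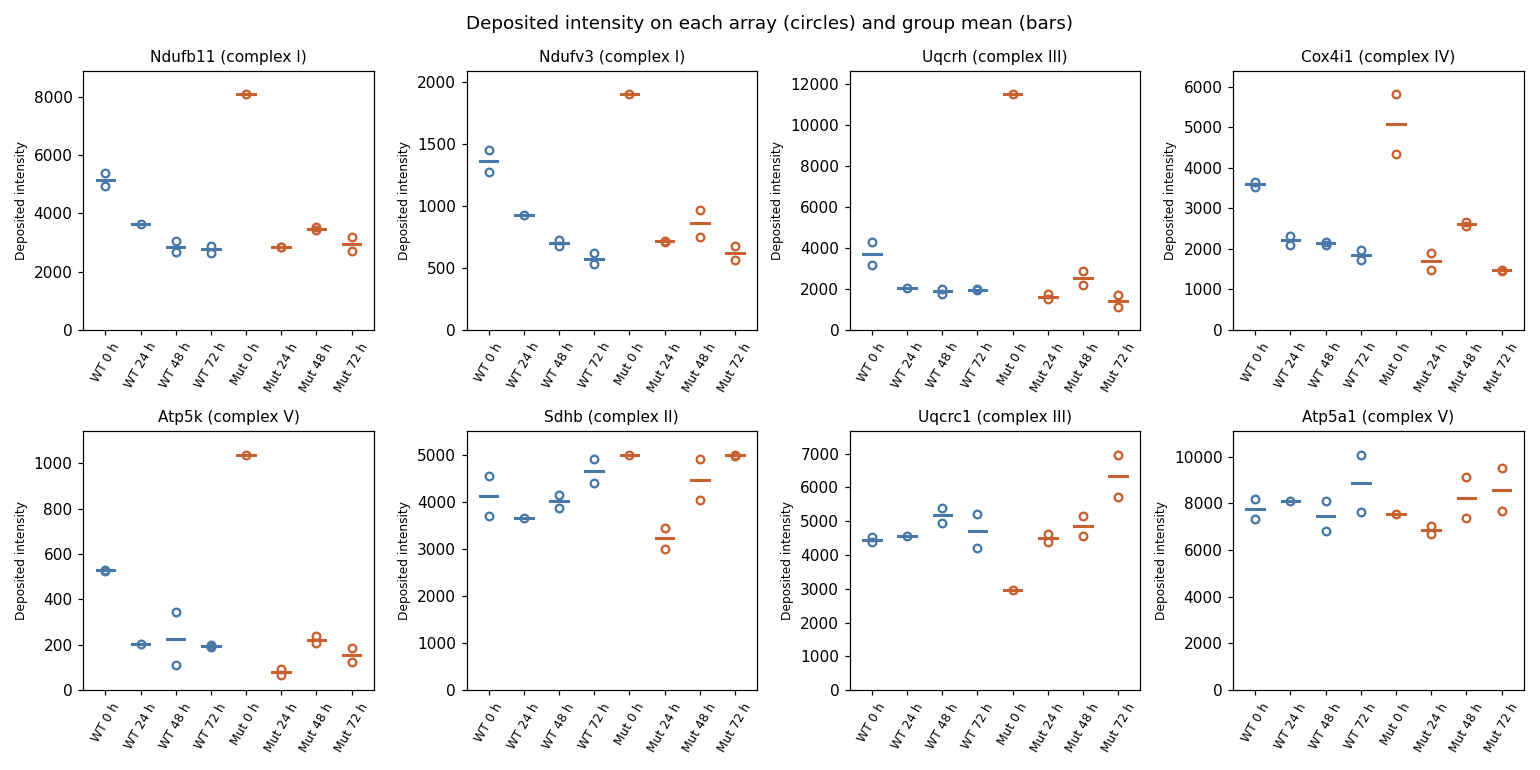
Intensity (linear axis) of 8 subunits in each of the 8 groups, with a circle for each array and a bar at the group mean. Ndufb11, Ndufv3, Uqcrh, Cox4i1 and Atp5k are lower on every oxygen array than on the 0 h arrays of their genotype, and the circles of Sdhb, Uqcrc1 and Atp5a1 overlap in wild type lung.

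No further fall was called after 24 h. From 24 h to 72 h in wild type lung, none of the 66 subunits was called by limma, 4 had an unadjusted p under 0.05, and the median was -0.00. Over all probe sets, 0.857% were called higher and 0.641% lower in this step. The group at 24 h has a single array on design A. The median log2 intensity of the subunits on design A was 11.84 and 12.14 on the 0 h arrays, 11.45 at 24 h, 11.43 and 11.50 at 48 h, and 11.49 and 11.58 at 72 h. The 5 oxygen arrays lay within a narrow band below both 0 h arrays.

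**Figure D3:**
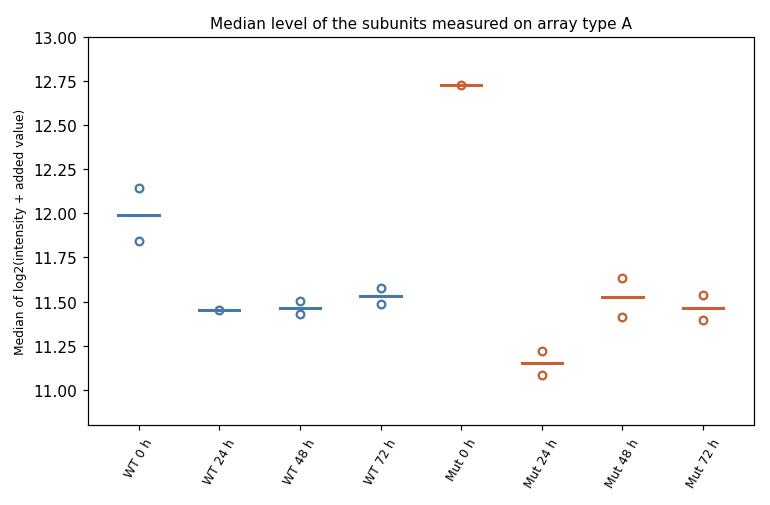
Median log2 intensity of the respiratory chain subunits on each array of design A (circles), by genotype and hours in oxygen; the vertical axis does not start at 0. The wild type arrays go from 11.84 and 12.14 at 0 h to between 11.43 and 11.58 in oxygen, and the mutant 0 h array at 12.73 is the highest of the 14.

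A check chosen after the values were seen took the brightest tested probe set on designs B and C for the 26 subunits that have one there. In wild type lung it called 1 lower at 48 h (median -0.19) and 1 lower and 1 higher at 72 h (median -0.15). On the probe sets used elsewhere, the same 26 subunits had medians of -0.28 and -0.23, and 3 were called lower at each time. Of the 80 members, 40 have several probe sets, and 21 are read on a probe set whose name carries a letter that the maker uses for probes shared with other transcripts or chosen under relaxed rules.

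The heart and muscle isoforms of complex IV take the place of the common ones in striated muscle, and mouse lung also holds cardiac muscle around its pulmonary veins. Cox7a1 read 415 and 699 at wild type 0 h, 188 at 24 h, 62.6 and 47.1 at 48 h, and 55.7 and 68.7 at 72 h. No oxygen array overlapped with those of 0 h, and from 24 h on the arrays were below 195, so the folds that follow are uncertain. It was 2.32-fold lower at 24 h (-1.22 ± 0.25, adjusted p = 0.041), 4.66-fold lower at 48 h (-2.22 ± 0.21, adjusted p = 0.00031) and 4.42-fold lower at 72 h (-2.14 ± 0.21, adjusted p = 0.00023). The 24 h call was lost without wild type 0 h 1b (-0.89), whose array is the brighter one.

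Cox8b, the muscle form of the smallest subunit, read 1034 and 1049 at 0 h, 641 at 24 h, 739 and 783 at 48 h, and 683 and 488 at 72 h. All oxygen arrays were lower than those of 0 h. It was called at 72 h at 1.71-fold lower (-0.77 ± 0.21, adjusted p = 0.049), a call that was lost without any 1 of the 4 arrays and on its second probe set (-0.97, adjusted p = 0.063). Cox6a2 did not follow the other two. It read 3569 and 3310 at 0 h, 2641 at 24 h, 4061 and 4160 at 48 h, and 5406 and 4019 at 72 h. Its 48 h and 72 h arrays were above those of 0 h, and the 72 h difference of 0.43 ± 0.19 was not called (adjusted p = 0.21).

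Cardiac muscle markers were lower in oxygen, as Cox7a1 and Cox8b were. The marker sum fell at each step. Cox8b was higher on both 48 h arrays than on the single 24 h array. Cox7a1 overlapped between 48 h and 72 h, but its arrays at both times were far below 195, where a further fall could hardly be seen. The courses can therefore not be compared closely. The summed intensity of 12 of these markers on design A was 37202 to 39034 at wild type 0 h and 23349 at 24 h. It was 13638 to 13817 at 48 h and 10088 to 10238 at 72 h. Of the 11 tested, 8 were called lower at 72 h, with a median of -1.31. Myl7, the atrial myosin light chain, had a mean of 11802 at 0 h and 1311 at 72 h, and Myl3 went from 345 to 7.35. None of the 12 had a 0 h mean of 0. The part of these cells in the fall of the isoforms was not tested. From 24 h to 72 h, 5 of the 11 cardiac markers were called lower (median -0.92), beside 0.641% of all probe sets. None of the 66 common subunits was called in that step, and their median was -0.00. The 24 h group is a single array on design A, and the part of cardiac muscle in the subunits' fall was not tested.

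Other cell types were read in the same way, first in wild type lung. Skeletal muscle markers summed to 2637 to 2725 at wild type 0 h and 650 to 914 at 72 h, and fat markers to 3633 to 4317 at 0 h, 1498 at 24 h, 2162 to 2988 at 48 h and 1854 to 2553 at 72 h. Lung epithelial markers, with surfactant proteins among them, summed to 42818 to 46272 at 0 h and 50169 to 54830 at 72 h, so the tissue carried the defining genes of lung throughout. Neutrophil markers summed to 10450 to 11158 at 0 h and 18705 to 19298 at 72 h, with 4 of 9 called higher, and macrophage markers to 32143 to 32797 and 33210 to 38110, with 2 of 7 called higher. Smooth muscle and pericyte markers summed to 10127 to 10155 at wild type 0 h and 7549 to 8430 at 72 h. At mutant 72 h they summed to 16888 to 18476, neutrophil markers to 6892 to 8290 and macrophage markers to 38725 to 39118. Lung epithelial markers summed to 57792 to 70745 at mutant 72 h. The part of these shifts in the fall of the common subunits was not tested.

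**Figure D4:**
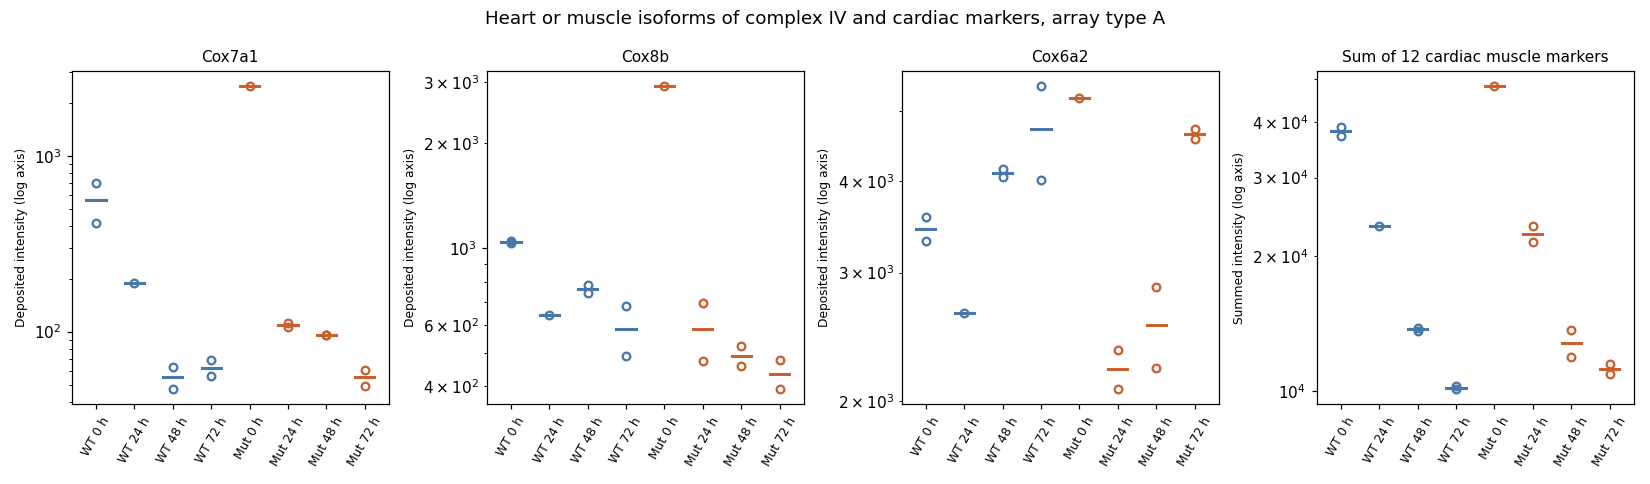
Intensity on design A (logarithmic axes) of Cox7a1, Cox8b and Cox6a2 and the sum of the 12 cardiac muscle markers, by genotype and hours in oxygen, with a circle for each array and a bar at the group mean. Cox7a1, Cox8b and the marker sum are lower in oxygen in both genotypes, and the Cox6a2 arrays at 72 h are above both wild type 0 h arrays.

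The genes whose 8 group means lay closest to those of each isoform on design A, by Pearson's r, were as follows. For Cox7a1 they were Ggh (0.991), Pgam2 (0.991), Smim1 (0.990), Hbb-b2 (0.989) and Tmem147 (0.989). For Cox8b they were Car3 (0.996), Micos13 (0.991), Ormdl1 (0.985), Rab9 (0.985) and Cops9 (0.984), and for Cox6a2 Mtm1 (0.936), Rpf2 (0.907), Hnrnpa1 (0.901), Hdac3 (0.898) and Nampt (0.892). These are descriptions over 8 means that share their arrays, and the mutant 0 h mean is a single array. That mean was the highest of the 8 for Cox7a1, Cox8b and every gene listed with them, so it weighs heavily in their r. Car3, for example, read 4342 there and 445 to 1227 in the other groups. Pgam2 is a muscle glycolytic enzyme and Car3 a carbonic anhydrase of muscle and fat, and none of the 15 is on the list of cardiac markers.

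At wild type 72 h the testis isoforms Cox6b2, Cox7b2 and Cox8c differed by -0.17, -0.20 and -0.38, and none was called by limma or had an unadjusted p under 0.05. Of 6 tested Ndufaf assembly factors, which build complex I, 1 was called lower at 48 h and none at 72 h, where the median was -0.06 and none had an unadjusted p under 0.05.

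In mutant lung more subunits were called against the mutant's own 0 h. At 24 h, 49 of 66 subunits were called lower and 2 higher, with a median of -1.41, where 12.1% of all probe sets were called lower and 12.2% higher. At 48 h, 42 were called lower and 1 higher, with a median of -1.03, beside 8.27% and 9.61% over all. At 72 h, 45 were called lower and 1 higher, with a median of -1.19, beside 10.5% and 11.0%. These comparisons all use the mutant 0 h arrays, which stood apart in the 3′ to 5′ control ratios, and their part in the result was not tested. Over all members, 59, 49 and 51 were called at the 3 times. Without mutant 0 h 1b the only mutant 0 h arrays left are of designs B and C. The members on design A then could not be tested, so their calls rest on that 1 array. The check on designs B and C, with 2 mutant 0 h arrays each, was weaker. Of 26 subunits, the brightest probe sets there called 11, 9 and 6 lower at 24 h, 48 h and 72 h. Their medians were -0.68, -0.33 and -0.31. The probe sets used elsewhere called 18, 16 and 16 of these 26 lower, with medians of -1.41, -0.94 and -1.03.

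By complex at mutant 72 h, 24 of 32 subunits of complex I were called lower (median -1.28), 1 of 4 of complex II (0.07), 5 of 7 of complex III (-1.74), 6 of 9 of complex IV (-0.99) and 9 of 14 of complex V (-1.08). Ndufb3, of the membrane arm of complex I, read 14158 on the single mutant 0 h array, 1437 and 1693 at 24 h, 2171 and 1814 at 48 h, and 1428 and 1834 at 72 h. In wild type lung it read 2811 and 3065 at 0 h, so the mutant 0 h array alone was far above the rest. Its mutant difference at 72 h was -3.07 ± 0.24 (adjusted p = 3.1e-05).

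Uqcrh read 11491 at mutant 0 h, 1491 and 1757 at 24 h, 2196 and 2878 at 48 h, and 1101 and 1708 at 72 h, and its 72 h difference was -3.00 ± 0.29 (adjusted p = 9.5e-05). Its second probe set gave -0.47, which was not called. Atp5md, a small accessory subunit of ATP synthase, differed by -2.69 ± 0.37 (adjusted p = 0.00074), with -0.43 and no call on its second probe set. Cox7a1 had the largest difference of all members, with 2497 at mutant 0 h, 113 and 106 at 24 h, 95.9 and 96.2 at 48 h, and 60.5 and 49.3 at 72 h (-4.28 ± 0.25, adjusted p = 5.5e-06).

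The members called higher were Uqcrc1, Ndufv1 and Sdha, at each time a smaller share than that of all probe sets called higher. All 3 are core or catalytic subunits, but other such subunits were called lower. At 24 h these included Ndufv2 (-2.52), Ndufs8 (-1.72), Atp5c1 (-1.65) and Uqcrc2 (-1.27). Uqcrc1, core protein 1 of complex III, read 2972 at mutant 0 h, 4618 and 4371 at 24 h, 5154 and 4555 at 48 h, and 6973 and 5729 at 72 h. Its oxygen arrays were all above the single 0 h array and within or above the wild type range. It was called at 48 h (0.69 ± 0.21, adjusted p = 0.045) and at 72 h, at 2.10-fold higher (1.07 ± 0.21, adjusted p = 0.005), but not on its second probe set (0.37). The 48 h call was lost without either mutant 48 h array. At 24 h Ndufv1 (0.84 ± 0.25, adjusted p = 0.032) and Sdha (0.63 ± 0.19, adjusted p = 0.038) were called higher, and each lost its call without either mutant 24 h array.

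From 24 h to 72 h in mutant lung, 1 of 66 subunits was called higher and none lower, with a median of 0.17. Over all probe sets, 2.40% were called higher and 2.65% lower, so 1 call among 66 is no more than the share over all. The subunit called was Cox7b, at 856 and 771 at 24 h and 1471 and 1611 at 72 h, without overlap (1.82-fold higher, 0.86 ± 0.17, adjusted p = 0.018). Cox6a2 was called with it, at 2078 and 2347 at 24 h, 2863 and 2223 at 48 h, and 4724 and 4580 at 72 h. Its 72 h arrays stood above the 4 earlier oxygen arrays, at 2.07-fold over 24 h (1.05 ± 0.19, adjusted p = 0.012). The cardiac marker sum fell over the same step, from 21579 to 23383 at 24 h to 10915 to 11494 at 72 h. Both calls were lost without any 1 of the 4 arrays compared.

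Before oxygen, the mutant exceeded the wild type for most subunits. At 0 h, 15 of 66 were called higher and none lower, with a median of 0.65 against -0.06 over all probe sets, of which 1.46% were called higher and 1.29% lower. Ndufb3 was 4.72-fold higher (2.24 ± 0.24, adjusted p = 0.0013), with 14158 against 2811 and 3065. Cox7a1 was 4.16-fold higher (2.06 ± 0.25, adjusted p = 0.0025), Atp5md 4.10-fold (2.04 ± 0.37, adjusted p = 0.021), and Uqcrh differed by 1.62 ± 0.29 (adjusted p = 0.019). The single mutant array lay above both wild type arrays for each of these 4. The Atp5md call was lost without wild type 0 h 1a (1.76) and on its second probe set (0.68).

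On designs B and C, where mutant 0 h has 2 arrays, 2 members were called. Ndufaf5, an assembly factor of complex I, read 913 and 1055 in the mutant and 250 and 240 in the wild type (1.58 ± 0.20, adjusted p = 0.0015). Atp5g2, which encodes the subunit c of the proton-carrying ring, read 5345 and 3970 against 1314 and 1424 (1.68 ± 0.24, adjusted p = 0.0046), without overlap. Its other probe sets on design A gave 0.27 and -0.77, so probe sets of this gene disagree. Skeletal muscle markers on design A summed to 26275 on the mutant 0 h array and to 2637 and 2725 on the wild type ones, fat markers to 6139 and cardiac markers to 48135. Of 8 tested skeletal markers, 5 were called higher (median 2.23), and the part of these tissues in the subunits' difference was not tested.

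Over all members, 18 were called at 0 h. Without mutant 0 h 1b the members on design A could not be tested, so their calls rest on that array alone. Fewer members were called without wild type 0 h 1a or 1b, and 7 were with only the arrays compared. The change from 0 h to 72 h differed between the genotypes for 6 of 66 subunits, each with the lower change in the mutant (median of the 66, -0.77), where 0.574% of all probe sets differed upward and 0.786% downward. Over all members the count was 9, and it was 0 with only the arrays compared. Without mutant 0 h 1b the members on design A again could not be tested. The count also fell without any 1 of the 6 other samples that have an array of design A here. This difference of changes, and the comparison with wild type 0 h that follows, were added after the values were seen.

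In oxygen, the genotypes were not told apart in any member. At 24 h none of 78 members was called by limma, and 11 had an unadjusted p under 0.05, where 0.0783% of all probe sets were called higher in the mutant and 0.0783% lower. At 48 h none was called and 5 had an unadjusted p under 0.05, beside 0.119% higher and 0.257% lower over all. At 72 h none was called and 4 had, beside 0.354% and 0.466%. The median differences of the 66 subunits were -0.29, 0.15 and -0.07 at the 3 times, so they did not keep a sign.

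Averaged over the 3 oxygen times, none of 78 members was called and 7 had an unadjusted p under 0.05, where 0.589% of all probe sets were called higher and 0.663% lower. The smallest p was that of Sdhd, a membrane anchor of complex II, whose mean difference was -0.39 ± 0.09 (adjusted p = 0.09). Sdhd read 3406 at 24 h, 3347 and 3406 at 48 h, and 3993 and 4461 at 72 h in the wild type. In the mutant it read 2733 and 2634, 2507 and 2471, and 3234 and 3036, so the mutant arrays were lower at each time without reaching the threshold. The change from 24 h to 72 h differed between genotypes for none of 78 members by limma, with 3 at an unadjusted p under 0.05, beside 0.0447% upward and 0.0671% downward over all probe sets.

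Set against wild type 0 h, which does not use the mutant 0 h arrays, the mutant at 72 h had 22 of 66 subunits called lower and none higher, with a median of -0.49 against -0.06. Over all probe sets, 6.66% were called lower and 6.23% higher. For 44 of the 66 (66.7%), both mutant 72 h arrays were below both wild type 0 h arrays, beside 29.6% of all probe sets. The wild type comparison at 72 h uses the same 0 h arrays, and its values were 13 of 66 and -0.41. The check on designs B and C was weaker for mutant 72 h against wild type 0 h. Of 26 subunits, the brightest probe sets there called 2 lower and 1 higher (median -0.02). The probe sets used elsewhere called 6 of these 26 lower (median -0.30). Over all members 24 were called. The count was 9 without wild type 0 h 1b, 13 without 0 h 1a, 11 without mutant 72 h 1a and 8 with only the arrays compared.

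By complex, 11 of 32 subunits of complex I were called lower (median -0.50), 1 of 4 of complex II (0.03), 4 of 7 of complex III (-0.69), 4 of 9 of complex IV (-0.49) and 2 of 14 of complex V (-0.39). Within complex I, 11 of 26 accessory and 0 of 6 core subunits were called, the latter with 1 at an unadjusted p under 0.05. Against mutant 0 h, the core subunits Ndufv2 (-1.82), Ndufs8 (-1.32) and Ndufs7 (-0.64) were called lower at mutant 72 h. Ndufs1, Ndufs3 and Ndufv1 were not called there. Cox4i1 read 1490 and 1453 at mutant 72 h against 3527 and 3663, without overlap (-1.22 ± 0.18, adjusted p = 0.0009). Uqcrh was 2.59-fold lower (-1.37 ± 0.24, adjusted p = 0.0041), though its second probe set gave 0.09. Atp5k, at 185 and 123, was 2.63-fold lower (-1.40 ± 0.31, adjusted p = 0.014), an uncertain fold since both arrays are below 195, and its call was lost without either wild type 0 h array or mutant 72 h 1b.

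Uqcr11 was 3.06-fold lower (-1.61 ± 0.36, adjusted p = 0.016), with 722 and 1713 at mutant 72 h against 2829 and 4531. Its mutant arrays lay far apart, and without the lower one, 1a, the difference was -1.03 and not called, as it was at -1.28 without wild type 0 h 1b. Cox7a1 was 4.66-fold lower (-2.22 ± 0.21, adjusted p = 0.00011), and Cox8b, at 393 and 477 against 1034 and 1049, differed by -1.13 ± 0.21 (adjusted p = 0.006). Cox6a2, at 4724 and 4580 against 3569 and 3310, differed by 0.43 ± 0.19 and was not called. Cardiac markers were called lower for 7 of 11 (median -1.44), beside 6.66% of all probe sets. The part of cardiac muscle in the isoforms' differences was not tested.

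**Figure D5:**
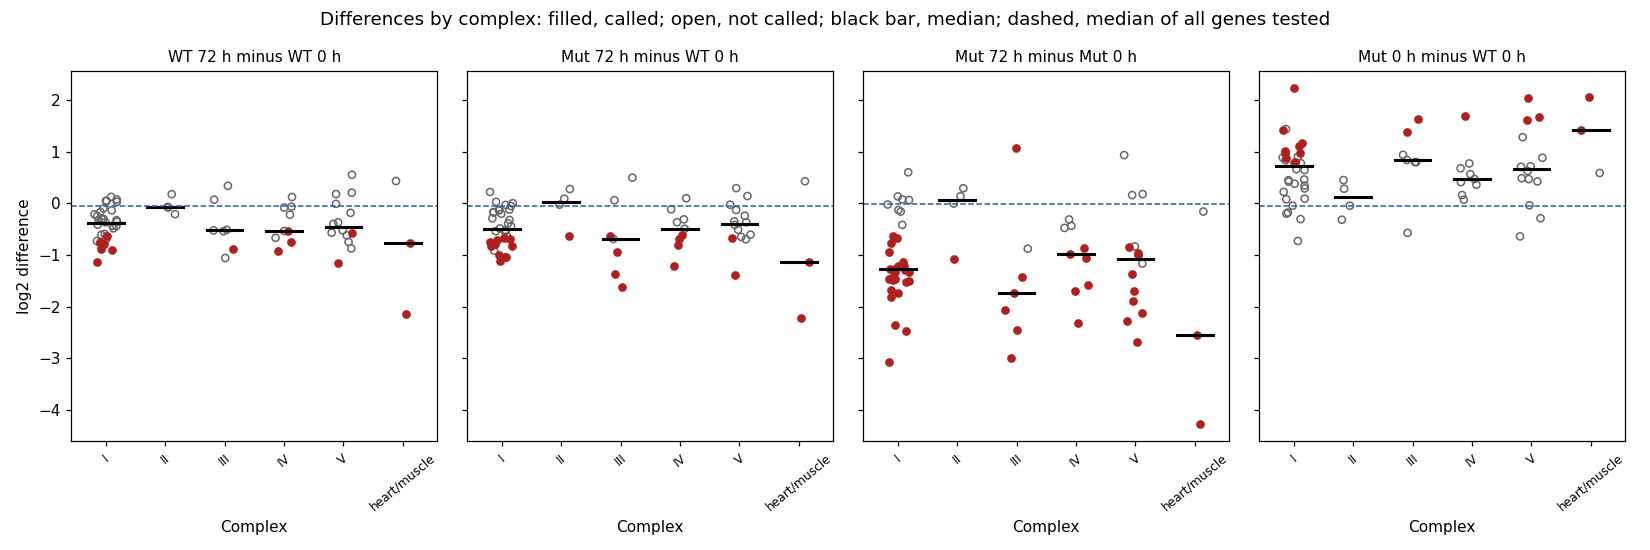
Log2 difference of each tested subunit by complex in 4 comparisons (wild type 72 h and mutant 72 h against wild type 0 h, mutant 72 h against mutant 0 h, and mutant against wild type at 0 h). Filled circles are called genes and open circles the others. A bar marks the median of the complex, and a dashed line the median of all genes tested, each on its brightest probe set. The median of complex II sits near the dashed line in each panel. Its subunit Sdhd lies below that line at mutant 72 h, at -0.63 against wild type 0 h and -1.08 against mutant 0 h. The panel of mutant against wild type at 0 h is the only one with most circles above the dashed line.

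Other mitochondrial genes were taken from lists that leave out the members, and their counts are to be read against the 3.57% of all probe sets called lower and 4.26% called higher at wild type 72 h. A count of 1 among 31 or 18 genes lies near that share. At wild type 72 h, 2 of 22 assembly factors of the chain were called lower and none higher, with a median of -0.17. They were Sdhaf4, which helps load the flavin subunit of complex II (-0.98), and Atpif1, the inhibitor of ATP hydrolysis by complex V (-0.90). Among 14 electron carriers and quinone synthesis genes, Etfb was called lower (-0.76) and Coq10b higher (0.71). None of 19 citric acid cycle genes was called by limma, and 4 had an unadjusted p under 0.05 (median -0.13).

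Of 12 genes of mitochondrial fatty acid oxidation, 3 were called lower (median -0.20): Acaa2 (-0.88), Acadm (-0.76) and Hadh (-0.72). Slc25a4, the ADP/ATP carrier of heart and muscle, was the 1 of 9 carriers and uncoupling proteins called lower (-1.05). Of 31 mitochondrial ribosomal protein genes 1 was called lower, Mrps33 (-0.90), with a median of -0.20. None of 14 regulators of mitochondrial biogenesis was called by limma and 2 had an unadjusted p under 0.05, with a median of 0.02.

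Genes of these lists called higher at wild type 72 h were few. Hspa9, the matrix chaperone that pulls proteins in, rose by 1.78 and was the 1 of 18 import genes called (median 0.09). Hk2, the inducible hexokinase, rose by 1.96 and Pkm by 0.63, the 2 called of 13 glycolytic genes (median 0.09). Of 8 mitochondrial antioxidant genes, Sod2 (0.91) and Gsr (0.87) were called higher and Gpx4 (-0.84) lower.

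At mutant 72 h against mutant 0 h, the same lists are to be read against 10.5% of all probe sets called lower and 11.0% higher. There were 10 of 31 mitochondrial ribosomal protein genes called lower (median -0.52), 8 of 22 assembly factors lower and 1 higher, and 7 of 14 carrier and quinone genes lower and 1 higher. Cycs, cytochrome c, differed by -1.93 (adjusted p = 0.0045). Of 19 citric acid cycle genes, 4 were called higher and 1 lower. Cs, citrate synthase, rose by 1.08 and Dlat, of pyruvate dehydrogenase, by 1.98. These values use the same mutant 0 h arrays as the subunits above.

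Promoter matches were also counted by call. Of the 11 subunits called lower at wild type 72 h that have a window, 1 held the NRF1 core, 5 the ETS core, 3 the YY1 core and 1 the antioxidant response element core. Of the 44 tested subunits not called, 16, 18, 6 and 6 did. The called genes among those printed are Uqcrh, Ndufv3, Atp5k, Ndufa7 and Cox7a1. Ndufa7 has 2 windows in the table, both with this match, and no test was made of these counts.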

How the data were processed

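The authors deposited 1 intensity per probe set and array on a linear scale. The arrays named no scaling method, but the mean intensity after trimming 2% at each end was 800.2 to 800.5 on every array, so the arrays had been scaled to a common mean before deposit, and no further scaling was applied. The labels name lung tissue and total RNA; summarisation software is not given in the sources used here. Control probe sets were left out. For each of the 3 designs, log2 of intensity plus the design's 25th percentile (78.1, 126 and 106) was fitted with limma 3.58.1 in R 4.3.3, with 1 mean for each of the 8 groups. Probe sets above the 40th percentile (195, 272 and 211) on at least 2 arrays were tested, 26833 in all. P-values were two-sided and adjusted by Benjamini-Hochberg over the 3 designs together, with calls under 0.05. Where a group has 1 array, its spread is taken from the other groups. The fit was tested on simulated data. Figures were drawn with matplotlib 3.10.9.

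Members and gene lists were chosen with earlier results of these data known. Symbols came from the platform annotation, and 16 further probe sets with several symbols were left out. Ndufa4, Ndufa4l2, Uqcrfs1, Cox4i2 and Atp5b were not analysed here. Genes named are the isoforms and core subunits, up to 4 called members with the largest rise and fall in each comparison and without overlap between groups, the member of each complex with the smallest p at wild type 72 h and in the mean genotype difference, and the brightest and dimmest member of each complex. Other names were added after their values were seen.

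The alternatives were to raise low values to a floor, to quantile-normalize, to drop the filter or set it at the 60th percentile, to fit only the arrays compared, to block on the replicate label, to run eBayes with trend and robust settings, to read the second brightest probe set, and to leave out each sample. The number of arrays limits the precision.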

Additional observations from a re-analysis of the deposited data

Results flagged for a closer look

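The change from 0 h to 72 h differed between the genotypes in 9 members by limma's test of the difference itself, with the lower change in the mutant each time. In wild type lung Atp5g2 (0.55) and Ndufaf5 (-0.02) were not called at 72 h against 0 h. On the log2 scale, the mutant change minus the wild type change was -2.34 for Ndufb3, -1.70 for Ndufb9 and -1.25 for Ndufa5 in complex I, and -1.37 for the assembly factor Ndufaf5. It was -2.12 for Uqcrh in complex III, -1.56 for Cox7b in complex IV and -2.26 for Atp5g2 in complex V. The muscle isoforms Cox7a1 and Cox8b differed by -2.13 and -1.78. Each of these rests on the mutant 0 h arrays, whose 3′ to 5′ control ratios lay outside the range of the other arrays, and their part in the difference was not tested. A fit of only the arrays compared called 0 of them, and the main fit called 6 of 66 subunits where 39 had an unadjusted p under 0.05.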

How the results depend on the processing

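The value in each of the following is the number of members called, out of 78 tested in the main fit. Settings that drop arrays or change the filter can test another number. The cause of the changes was not tested beyond the smaller number of arrays or probe sets in a setting. With only the arrays compared, the count went from 1 to 0 (wild type 24 h against 0 h), 18 to 4 (48 h), 15 to 3 (72 h), 49 to 29 (mutant 48 h), 2 to 0 (mutant 72 h against 24 h), 18 to 7 (genotypes at 0 h), 9 to 0 (difference of the 0 h to 72 h changes) and 24 to 8 (mutant 72 h against wild type 0 h). With trend and robust settings it was 2 at wild type 24 h, 4 for mutant 72 h against 24 h, 28 at 0 h, 1 for the mean genotype difference and 15 for the difference of changes. Quantile normalization gave 0 at wild type 24 h and 10 between genotypes at 0 h, no filter 0 at wild type 24 h, the stricter filter 2 there and 4 for mutant 72 h against 24 h, and the floor 11 at wild type 48 h. With the replicate block the counts were 3 at wild type 24 h and 5 for mutant 72 h against 24 h, and no other count moved by over 1.5 times. Labels 1a and 1b were not taken to pair samples in the main fit. Pairs of same-numbered deviations correlated above 0.1 in 7 of 15 cases on design A, 18 of 28 on B and 2 of 28 on C. On design B these were most of the pairs. On design C the 1b array of every group had the higher 3′ to 5′ Gapdh ratio and the lower mean correlation with the other arrays. The labels can therefore go with a difference between arrays, and its part in the results was not tested beyond the replicate block. Second brightest probe sets gave 1 for wild type 72 h against 24 h, 4 for mutant 72 h against 24 h and 11 at 0 h, and turned Ndufb8 at wild type 48 h to 0.064, Uqcrh at wild type 72 h to 0.017 and Uqcrh at mutant 72 h against wild type 0 h to 0.089. On designs B and C alone, 12, 9 and 7 of 26 subunits were called at mutant 24 h, 48 h and 72 h.

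Leaving out 1 sample at a time gave 0 to 1 at wild type 24 h, 1 to 5 at 48 h, 3 to 6 at 72 h, 8 to 55 at mutant 24 h, 5 to 42 at 48 h, 8 to 49 at 72 h, 0 to 1 for mutant 72 h against 24 h, 2 to 19 between genotypes at 0 h, 1 to 9 for the difference of changes and 9 to 17 for mutant 72 h against wild type 0 h. Design A, with 63 of the 80 members, has only 1b at mutant 0 h and at wild type 24 h. Without that sample its members had no test against the group, so the lowest counts against mutant 0 h cover designs B and C alone. Where leaving out a sample left a group with 1 array, it was assumed to vary like the others. Of the single-gene results under the other settings, 306 kept their direction and side of the threshold, 43 lost their call and 3 turned. With 1 sample left out, 113 kept both and 55 lost their call.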
